A study of Homo sapiens with 30 samples.

Results

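Ribosome biogenesis and RNA polymerase I genes were followed as a set of 41 protein-coding genes, chosen by symbol from the 58780 genes of the deposited count table. The choice was made with earlier results of these data known. All 41 were present once each, and all 41 passed the filter on low counts that left 22919 genes for testing. Nascent RNA of A549, a human lung adenocarcinoma cell line, had been read by PRO-seq (precision run-on sequencing), in which RNA held by engaged polymerases is labelled. The 30 libraries formed 15 groups of 2, and the agents were the glucocorticoid dexamethasone (Dex) at 100 nM, the PRMT5 inhibitor GSK591 and the Type I PRMT inhibitor MS023, each of these at 1 µM, with 0.01% DMSO. PRMTs are protein arginine methyltransferases. One group was untreated and the others received Dex for 15 min or for 3 h, Dex given together with GSK591 or with MS023 for 3 h, GSK591 alone or MS023 alone for 2, 4 or 7 days, and Dex for 15 min or 3 h after 7 days of either inhibitor. The untreated group, titled as a 15 min control, served all treatment times, so every comparison with untreated cells shares its 2 libraries. Nothing in the labels says that replicates came from separate cultures, and p-values therefore measure only the spread between these samples, which may be technical.

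Ribosomes are assembled in the nucleolus, where RNA polymerase I transcribes the ribosomal DNA (rDNA) into 1 long precursor. Small nucleolar ribonucleoproteins (snoRNPs) modify the precursor, with fibrillarin (FBL) as the methyltransferase of the box C/D class and dyskerin (DKC1) as the pseudouridine synthase of the box H/ACA class, and the small-subunit processome and a series of large-subunit factors cut and fold it. Many genes of this pathway are known targets of MYC, which binds the E-box CACGTG.

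Promoter sequences are shown because the genes were followed together, and letters that their promoters share can be read directly. The RefSeq promoter table (GRCh38.p14) matched 34 of the 41 genes; it does not list DDX18, RRP12, NOP58, RRS1, BOP1, NOLC1 or RRP1B. CACGTG, which reads the same on both strands, lay within 250 bases before to 50 after a RefSeq start in 16 of the 34 genes (47.1%), against 8.77% of all genes in the table and 10.9% of the protein-coding ones. In the 250 bases before the start alone it lay in 6 of 34 (17.6%), against 7.73% and 9.73%. The window that reaches past the start was chosen after the shorter one had been searched. The motif CCGGAAG, searched on both strands in the longer window, lay in 14 of 34 (41.2%), against 12.2% of all and 16.5% of protein-coding genes. Among the lists of other pathway genes described below, CACGTG lay in 37.8% of the small-subunit, 27.9% of the large-subunit, 10.0% of the RNA polymerase I and 8.33% of the exosome genes, and CCGGAAG in 48.6%, 46.5%, 50.0% and 8.33%. GGGCGG, the third motif searched on both strands, lay in 73.5% of the 34 genes, against 48.3% of all and 64.3% of protein-coding genes. A match is only a string of letters and says nothing of binding. The next windows hold CACGTG, in capitals, close to the start, except that of NCL, the gene with the highest level, which holds none. Each runs 5′ to 3′ on the gene's strand over the last 150 bases before the start and the 30 after it.
FBL (chr19:39846350-39846529, minus strand): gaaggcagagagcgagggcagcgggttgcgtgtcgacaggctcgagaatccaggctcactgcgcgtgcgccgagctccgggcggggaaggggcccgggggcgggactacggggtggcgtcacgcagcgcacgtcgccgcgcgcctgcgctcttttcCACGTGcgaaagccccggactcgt
WDR43 (chr2:28894517-28894696, plus strand): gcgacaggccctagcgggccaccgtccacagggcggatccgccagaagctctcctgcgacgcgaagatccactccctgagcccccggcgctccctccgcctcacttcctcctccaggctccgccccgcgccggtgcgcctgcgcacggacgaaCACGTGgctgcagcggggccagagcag
RRP9 (chr3:51941875-51942054, minus strand): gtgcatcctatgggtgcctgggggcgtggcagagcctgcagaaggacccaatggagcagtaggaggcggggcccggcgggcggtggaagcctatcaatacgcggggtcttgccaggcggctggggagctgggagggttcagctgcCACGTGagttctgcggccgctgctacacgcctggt
PES1 (chr22:30591881-30592060, minus strand): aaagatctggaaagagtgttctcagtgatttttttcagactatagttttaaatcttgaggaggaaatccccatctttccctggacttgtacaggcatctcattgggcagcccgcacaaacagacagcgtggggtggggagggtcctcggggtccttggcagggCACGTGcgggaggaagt
NCL (chr2:231464455-231464634, minus strand): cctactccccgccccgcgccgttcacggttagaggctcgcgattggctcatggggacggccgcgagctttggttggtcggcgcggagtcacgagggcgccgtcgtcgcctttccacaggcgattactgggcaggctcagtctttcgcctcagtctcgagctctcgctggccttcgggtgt

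Libraries held 8441211 to 13069598 counts, of which mitochondrial genes took 58.7% to 78.7%, and the 41 genes had 5680 to 13948 counts per library. The epithelial markers KRT8, KRT18, KRT19, CDH1 and EPCAM were detected in all 30 libraries. KRT8, KRT18 and KRT19 had medians of 223, 106 and 13.5 CPM (counts scaled to a common library size). CDH1 and EPCAM had medians of 2.64 and 2.34 CPM. Of 8 markers of other cell types COL1A1 was the highest, with a median of 3.93 CPM, above CDH1 and EPCAM, and at most 8.24. COL1A1 and CD68 were at 0 in no library, and CD3E was at 0 in 21. One library stood apart, replicate 2 of Dex given with MS023 for 3 h. Its summed level of the 41 genes was 1365 CPM, against 824 in replicate 1, and processed pseudogenes took 2.04% of its nuclear counts, against 1.09% to 1.53% in the others. Its group's replicates correlated at r = 0.924 over 11088 genes (a description across genes, which are not independent), against 0.960 to 0.983 in the other groups. It enters the shared estimate of spread, so counts are also given without it.

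Per kilobase of exon, the untreated levels of the 41 genes ran from 0.677 CPM for DDX10 to 48.1 for NCL, with a median of 3.42. The feature type counted is not given in the sources used here, and these levels and their order hold only if exons were counted. Exons span 8653 of 275906 bases in DDX10 and 5398 of 6249 in NOP56. NCL encodes nucleolin, an abundant nucleolar RNA-binding protein, and alone gave 11.9% to 30.6% of the 41 genes' counts in a library. In CPM per kilobase (mean ± SD, n = 2), NCL stood at 48.1 ± 6.87, NOP56, a core protein of box C/D snoRNPs, at 26.4 ± 0.90, FBL at 11.5 ± 3.91, UBTF, the upstream binding factor of the rDNA, at 9.96 ± 0.38 and RRS1, a large-subunit factor, at 9.78 ± 1.29. The last 3 of these neighbours did not differ beyond their spread. At the other end stood DDX10, a processome helicase, at 0.677 ± 0.13, below WDR12, a large-subunit factor, at 1.05 ± 0.07.

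Summed over the 41 genes, the level was 1241 and 1161 CPM in the untreated libraries and 746.9 to 917 CPM in the 12 libraries with an inhibitor alone, all 12 below both untreated ones. CPM here is scaled by the TMM method, under which the median log2 change of all tested genes lay within 0.01 of 0 in each of the 6 comparisons of an inhibitor alone with untreated cells. Total counts as the only scaling moved that all-gene median to 0.29, 0.42 and -0.03 for GSK591 at 2, 4 and 7 days and to 0.68, 0.74 and 1.02 for MS023. Directions below are therefore relative to all genes, and in these bulk libraries fewer cells transcribing a gene and less transcription of it per cell cannot be told apart. A count per gene also does not separate polymerases near the start from those further along the gene. Under total counts the median of the 41 genes with MS023 was above 0, at 0.37, 0.29 and 0.66, and differed from that of all genes by -0.31, -0.45 and -0.36, as under TMM (-0.31, -0.45 and -0.36). The share of processed pseudogenes was 1.30% and 1.23% in untreated cells and 1.09% to 1.29% with an inhibitor alone. With that share as a covariate the genes called below were as many or more in each of the 6 comparisons. At 2, 4 and 7 days of GSK591 the medians of the 41 genes were then -0.22, -0.42 and -0.44. Without the covariate they were -0.31, -0.48 and -0.48. For MS023 they were -0.21, -0.42 and -0.34 with it and -0.31, -0.45 and -0.36 without it. The library that stood apart holds the highest share and enters this fit. The number of calls therefore does not measure the part of the share, which was not tested.

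**Figure D1:**
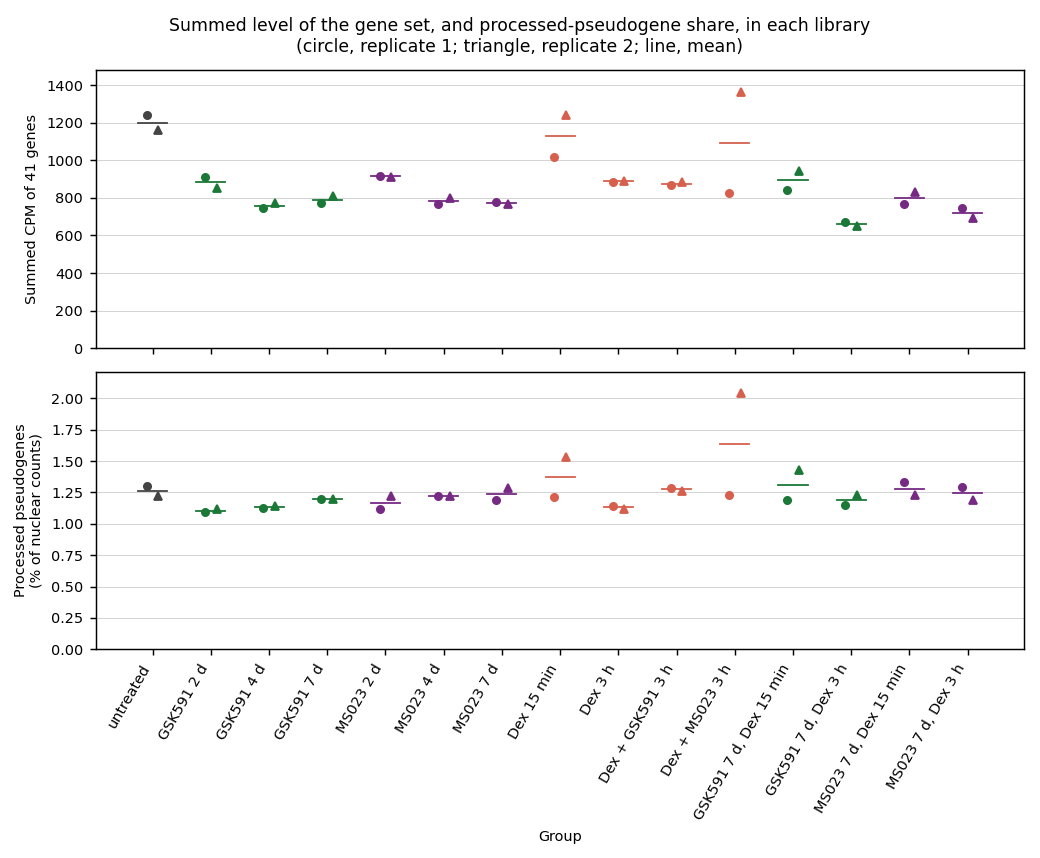
Summed level of the 41 genes (CPM, TMM scaling) and share of nuclear counts in processed pseudogenes (%) in each of the 30 libraries, by group (circle, replicate 1; triangle, replicate 2; line, mean; grey untreated, green GSK591 first, purple MS023 first, red Dex without pretreatment). The 12 libraries with an inhibitor alone sit between 746.9 and 917 CPM, below the untreated 1241 and 1161, and replicate 2 of Dex with MS023 stands at 1365 CPM and 2.04%.

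With GSK591, 1 of the 41 genes fell at 2 days, 15 at 4 days and 7 at 7 days, and none rose under TMM scaling (edgeR quasi-likelihood test, Benjamini-Hochberg adjusted over 22919 genes, threshold 0.05), while under total counts 0 fell at 2 days, 0 at 4 days, where 1 was higher, and 1 at 7 days. Under TMM scaling 2.45%, 8.28% and 6.52% of all genes tested fell at these times, against 2.44%, 36.6% and 17.1% of the 41. The 41 genes had a median count of 128 in a library. Here and below, the genes behind the share of all genes were not matched by count level to the set compared with them. The part of count level in such differences was not tested. Rises made up 3.19%, 8.91% and 6.68% of all genes. With total counts the all-gene median was 0.29, 0.42 and -0.03, and the share of all genes called is not given. Under TMM scaling the log2 change was below 0 for 34, 36 and 38 of the 41 genes. Its median was -0.31, -0.48 and -0.48. Leaving out 1 library changed the counts, and the share of all genes called in such fits is not given. At 2 days 0 genes passed without untreated replicate 2 or without GSK591 replicate 1. At 4 days 7 genes fell without untreated replicate 1 and 7 without either GSK591 replicate. At 7 days 3 and 2 fell without untreated replicate 1 and 2, and 3 and 2 without GSK591 replicate 1 and 2. Without the library that stood apart the counts were 7, 22 and 16.

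With MS023, 5 genes fell at 2 days, 10 at 4 days and 12 at 7 days under TMM scaling, while under total counts none fell and 11, 5 and 21 were higher. With total counts the all-gene median was 0.68, 0.74 and 1.02, above that of the 41 genes, 0.37, 0.29 and 0.66. The share of all genes called is not given for total counts or for the fits below without 1 library. Under TMM scaling 4.21%, 6.37% and 6.51% of all genes fell, against 12.2%, 24.4% and 29.3% of the 41. BYSL was the only one of the 41 to rise under TMM scaling, at 2 and 7 days, and of all genes 6.18%, 7.8% and 7.13% rose at 2, 4 and 7 days. The medians were -0.31, -0.45 and -0.36, and 37, 38 and 38 genes lay below 0. Without untreated replicate 1 the falls numbered 1, 2 and 5, and without untreated replicate 2 they were 2, 3 and 4. Without MS023 replicate 1 they were 2, 1 and 5, and without replicate 2 they were 1, 4 and 4. Without the library that stood apart they were 10, 21 and 16.

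**Figure D2:**
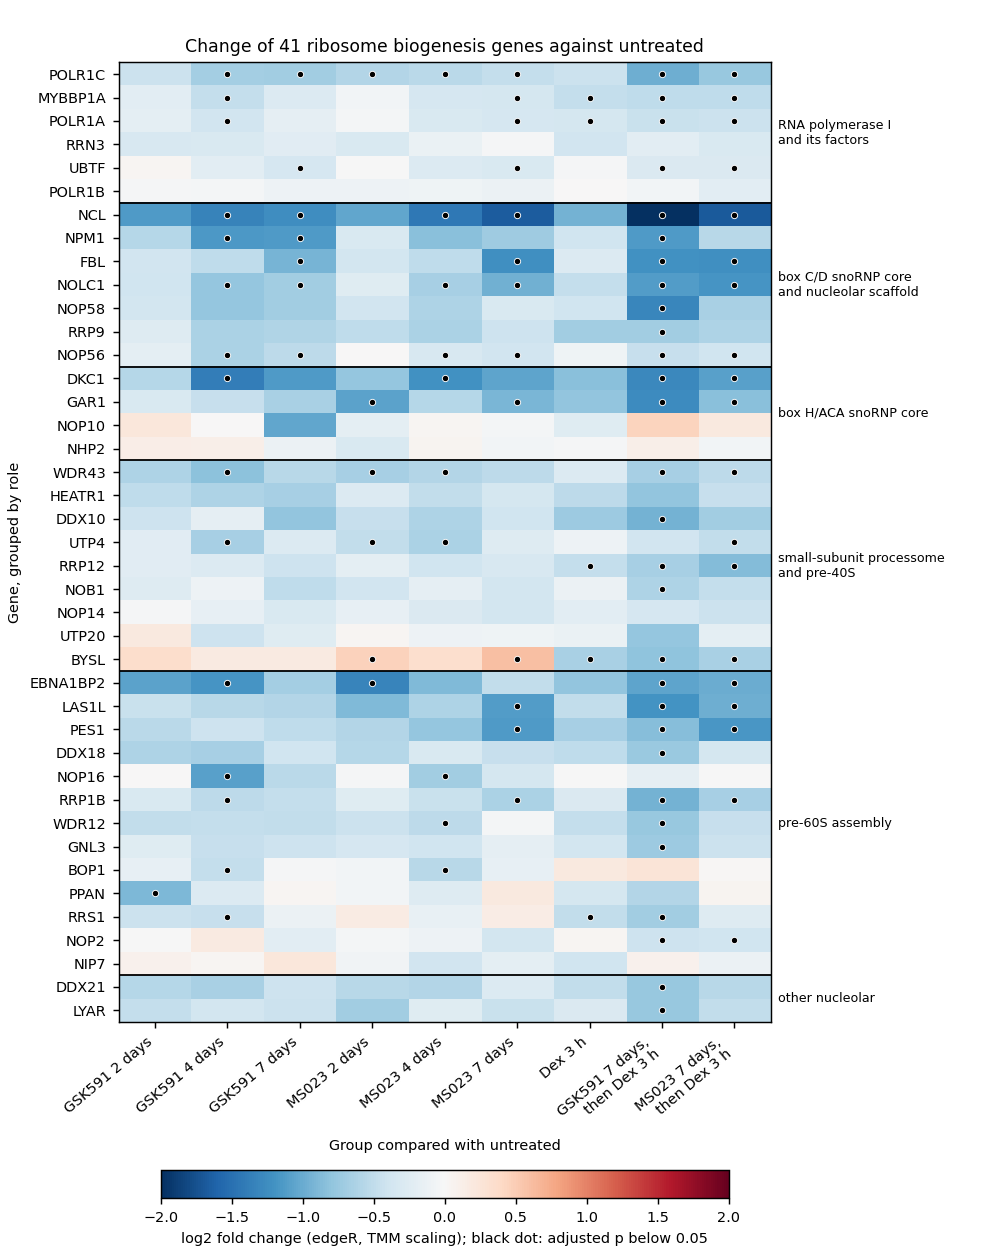
Log2 fold change (colour, edgeR with TMM scaling) of the 41 genes (rows, grouped by role) in 9 comparisons (columns); a black dot marks an adjusted p below 0.05. NCL has some of the lowest values, down to -1.66 after 7 days of MS023, and BYSL is the row that is above 0 with MS023 and below 0 after 3 h of Dex; under total-count scaling the all-gene median of the 3 columns of MS023 alone shifts up by 0.68 to 1.02.

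Over the 6 comparisons of an inhibitor alone with untreated cells, 22 of the 41 genes fell at least once, 1 rose and 18 passed the test in none. Of the 22, 15 fell with GSK591 and with MS023 at some time, 3 with GSK591 alone (NPM1, PPAN and RRS1) and 4 with MS023 alone (GAR1, LAS1L, PES1 and WDR12). How many of all genes tested fell at least once, or with both inhibitors, is not given, so these counts have no background. In single comparisons 2.45% to 8.28% of all genes fell, and all 6 share the untreated pair. Passing with 1 inhibitor does not show a difference between them. Tested directly, GSK591 and MS023 differed in 1 gene at 2 days, 1 at 4 days and 0 at 7 days, against 2.69%, 6.03% and 9.38% of all genes. RRS1 stood at 12.0 and 12.9 CPM with GSK591 and 17.1 and 20.4 CPM with MS023 at 2 days, 0.59 ± 0.16 (SE) lower with GSK591 on the log2 scale (edgeR, adjusted p = 0.0263), and this was lost without either GSK591 replicate or MS023 replicate 2 (adjusted p up to 0.364). NOP56 was 0.31 ± 0.10 lower with GSK591 at 4 days (adjusted p = 0.0476), which was lost without any 1 of the 4 libraries compared (adjusted p up to 0.397). At 7 days 5 of the 41 genes had an unadjusted p under 0.05 by edgeR and DESeq2 called 0; 1 gene passed without GSK591 replicate 2 and 2 without the library that stood apart. The log2 differences at 7 days ran from -0.995 for NOP10 to 0.62 for PES1. Under total counts 38 genes were lower with GSK591, but the all-gene median was then -1.07 and that of the 41 was -1.14.

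NCL (hg38 chr2:231453531-231483641, minus strand) had the lowest log2 change of all 41 genes at 7 days of either inhibitor. Its level was 367 and 299.6 CPM in untreated cells, 177 and 128, 122 and 142, and 136 and 146 CPM with GSK591 at 2, 4 and 7 days, and 160.2 and 163, 110.3 and 137, and 98.1 and 112 CPM with MS023 at the same times. All 12 treated libraries lay below both untreated ones. On the log2 scale NCL fell by 1.33 ± 0.36 and 1.24 ± 0.36 with GSK591 at 4 and 7 days (edgeR, adjusted p = 0.0164 and 0.0303) and by 1.43 ± 0.35 and 1.66 ± 0.36 with MS023 (0.0129 and 0.00521), the last a 3.17-fold fall. At 2 days its log2 change was -1.13 with GSK591 and -1.04 with MS023, and neither passed. Each of the 4 falls was lost in at least 1 fit without 1 library, with adjusted p up to 0.129 and 0.165 for GSK591 and 0.119 and 0.0636 for MS023, while the change at 7 days of MS023 stayed between -1.80 and -1.51. The introns of NCL hold 3 snoRNA genes, and its name is carried by 2 annotated processed pseudogenes.

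The box C/D and scaffold group held NCL, NPM1, FBL, NOP56, NOP58, NOLC1 and RRP9. Of these 7 genes 0, 4 and 5 fell with GSK591 at 2, 4 and 7 days (all genes 2.45%, 8.28% and 6.52%). With MS023 0, 3 and 4 fell (all genes 4.21%, 6.37% and 6.51%). Differences between groups of genes by role were not tested. FBL (hg38 chr19:39834458-39846414, minus strand) was at 19.0 and 31.0 CPM in untreated cells, 20.0 and 18.6, 16.8 and 18.5, and 12.7 and 13.8 CPM with GSK591, and 19.5 and 19.4, 15.3 and 20.0, and 10.9 and 10.6 CPM with MS023. The untreated pair is wide apart, and both libraries lie below it only at 4 and 7 days of GSK591 and at 7 days of MS023. FBL fell by 0.93 ± 0.20 at 7 days of GSK591 (edgeR, adjusted p = 0.00231) and by 1.23 ± 0.20 at 7 days of MS023 (6.2e-05). The MS023 fall passed in each of the 5 fits without 1 library (adjusted p up to 0.00658), and the GSK591 fall did not without untreated replicate 2, where the change was -0.53 (adjusted p = 0.129).

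NOP56, whose exons overlap 6 small RNA genes on the same strand, SNORD57 and SNORD86 among them, was at 139 and 146 CPM untreated, 122 and 126, 90.7 and 93.5, and 94.6 and 104 CPM with GSK591, and 147 and 139, 109 and 119, and 112 and 107 CPM with MS023. The values at 4 and 7 days of both inhibitors, and at 2 days of GSK591, lie below the untreated pair. NOP56 fell by 0.63 ± 0.10 and 0.52 ± 0.10 at 4 and 7 days of GSK591, and both falls passed in each of the 5 fits without 1 library (edgeR, adjusted p up to 0.000748 and 0.0180). With MS023 it fell by 0.32 ± 0.10 and 0.38 ± 0.10, which did not hold in all such fits (adjusted p up to 0.230 and 0.0861). NOLC1, a chaperone of snoRNPs, was at 37.8 and 33.7 CPM untreated, 29.6 and 24.8, 22.3 and 19.5, and 22.4 and 21.6 CPM with GSK591, and 31.0 and 29.2, 22.5 and 22.4, and 20.0 and 16.7 CPM with MS023, all 12 below the untreated pair. It fell by 0.77 ± 0.20 and 0.70 ± 0.21 at 4 and 7 days of GSK591 and by 0.67 ± 0.20 and 0.96 ± 0.20 of MS023, and each was lost in at least 1 fit without 1 library (adjusted p up to 0.0962, 0.154, 0.180 and 0.0515).

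NPM1 (hg38 chr5:171387116-171411137, plus strand) encodes nucleophosmin, a chaperone of the nucleolus. Its level was 30.9 and 29.1 CPM untreated, 24.2 and 16.5, 14.0 and 13.1, and 12.7 and 14.7 CPM with GSK591, and 23.2 and 25.3, 17.4 and 16.2, and 20.5 and 16.3 CPM with MS023. All 12 treated libraries lie below the untreated pair. NPM1 fell by 1.14 ± 0.34 and 1.13 ± 0.35 at 4 and 7 days of GSK591 (edgeR, adjusted p = 0.0277 and 0.0409), while its log2 changes with MS023, -0.31, -0.84 and -0.70, did not pass. Both falls were lost in 4 of 5 fits without 1 library (adjusted p up to 0.141 and 0.223). The annotation names 45 processed pseudogenes of NPM1, with which its reads could be shared. NOP58 and RRP9 passed in none of the 6 comparisons.

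In the box H/ACA group, DKC1 (hg38 chrX:154762742-154777689, plus strand), whose exons overlap 3 small RNA genes on the same strand, was at 15.2 and 12.3 CPM untreated, 9.14 and 9.42, 5.28 and 5.21, and 6.04 and 6.43 CPM with GSK591, and 7.72 and 8.31, 5.61 and 6.27, and 7.58 and 5.65 CPM with MS023. All 12 values lie below the untreated pair. DKC1 fell by 1.39 ± 0.37 and 1.21 ± 0.35 at 4 days of GSK591 and MS023 (edgeR, adjusted p = 0.0154 and 0.0278), both lost in at least 1 fit without 1 library (adjusted p up to 0.115 and 0.196), and its log2 changes at 7 days, -1.14 and -1.05, did not pass. GAR1, its partner, fell by 1.08 ± 0.31 and 0.91 ± 0.29 at 2 and 7 days of MS023 from an untreated level of 5.13 ± 0.13 CPM (SD, n = 2), and adjusted p reached 0.226 and 0.213 without 1 library. NHP2 and NOP10, the remaining core proteins, passed in none of the 6 comparisons.

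**Figure D3:**
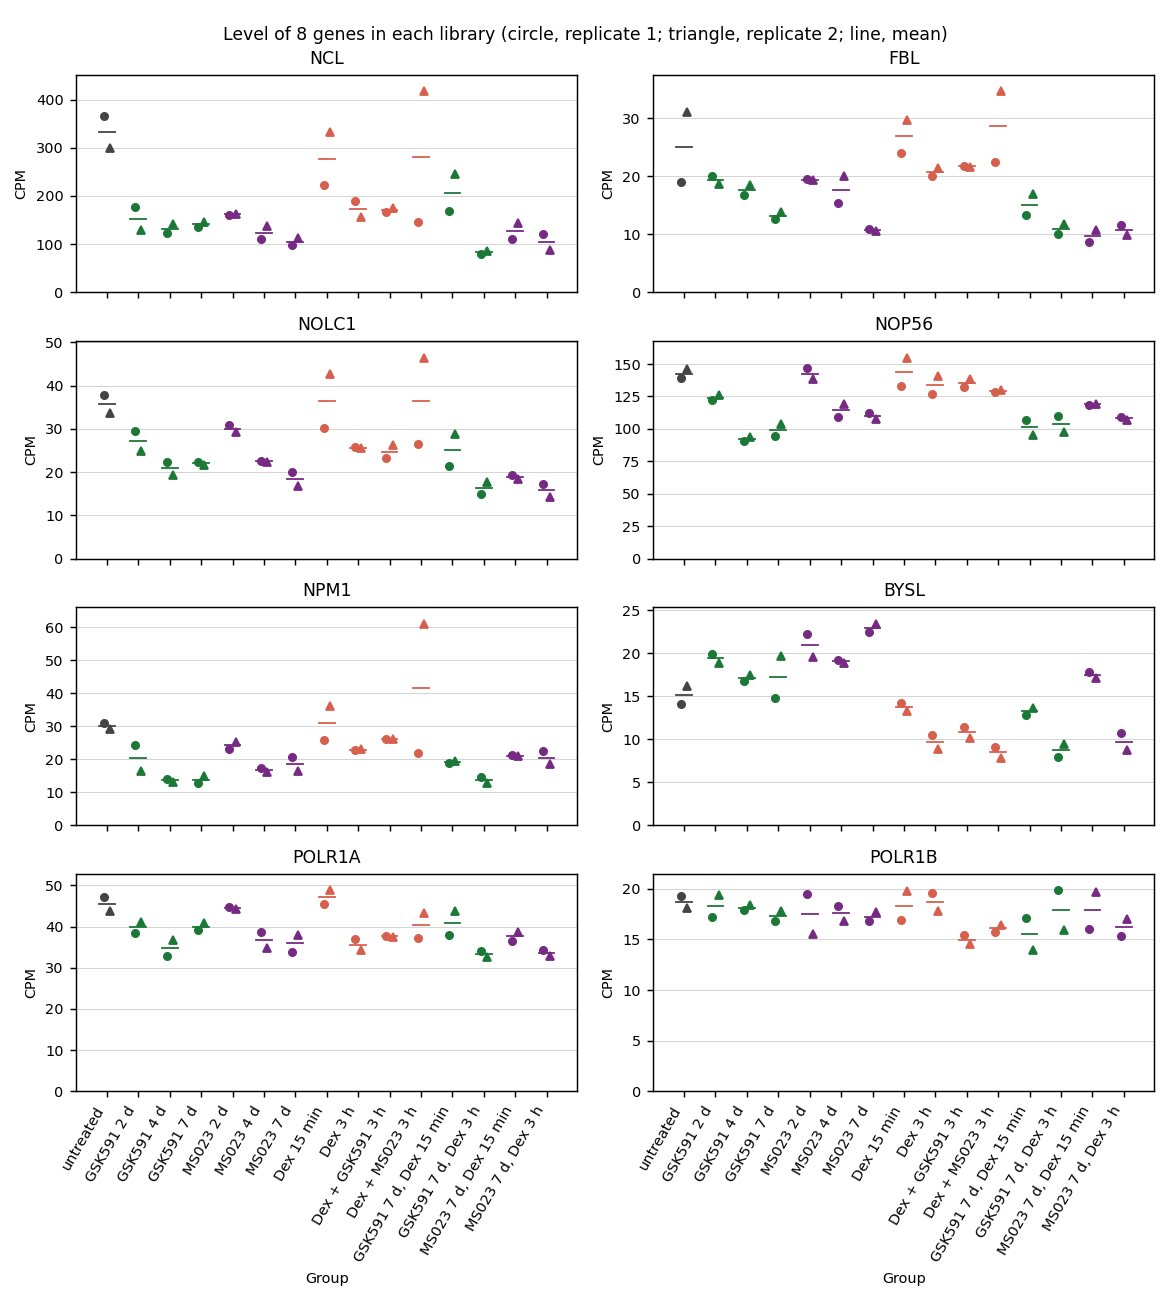
CPM (TMM scaling) of 8 genes in each of the 30 libraries, by group (circle, replicate 1; triangle, replicate 2; line, mean; grey untreated, green GSK591 first, purple MS023 first, red Dex without pretreatment). NCL goes from 367 and 299.6 CPM untreated to 98.1 and 112 after 7 days of MS023, BYSL is above its untreated 14.1 and 16.1 in all 6 libraries of MS023 alone, and POLR1B, at 19.2 and 18.1 untreated, passed in none of the 6 comparisons of an inhibitor alone; under total-count scaling the all-gene median rises by 0.68 to 1.02 with MS023 and many of its falls turn above 0.

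Among the 6 genes of RNA polymerase I and its factors, 0, 3 and 2 fell with GSK591 (all genes 2.45%, 8.28% and 6.52%). With MS023 1, 1 and 4 fell (all genes 4.21%, 6.37% and 6.51%). POLR1A (hg38 chr2:86020216-86106155, minus strand), the largest subunit, was at 47.2 and 43.7 CPM untreated, 38.4 and 41.1, 32.7 and 36.8, and 39.2 and 40.7 CPM with GSK591, and 44.7 and 44.2, 38.7 and 34.8, and 33.9 and 38.0 CPM with MS023. Only the 2-day MS023 libraries reach into the untreated range. POLR1A fell by 0.39 ± 0.11 at 4 days of GSK591 (edgeR, adjusted p = 0.0112) and by 0.34 ± 0.11 at 7 days of MS023 (0.0298), with adjusted p up to 0.168 and 0.274 when 1 library was left out. UBTF (hg38 chr17:44205033-44221626, minus strand) was at 71.5 and 67.8 CPM untreated, 72.3 and 71.5, 58.7 and 61.2, and 55.9 and 54.9 CPM with GSK591, and 68.2 and 70.3, 55.1 and 60.6, and 60.3 and 52.5 CPM with MS023. The 4-day and 7-day libraries of both inhibitors lie below the untreated pair and the 2-day libraries do not. UBTF fell by 0.33 ± 0.11 and 0.30 ± 0.10 at 7 days of GSK591 and MS023 (adjusted p = 0.0311 and 0.0417), and adjusted p reached 0.195 and 0.382 without 1 library.

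POLR1B (hg38 chr2:112541915-112577150, plus strand), the second largest subunit, and RRN3 (hg38 chr16:15060022-15094317, minus strand), the factor that brings the polymerase to the promoter, passed in none of the 6 comparisons. POLR1B was at 19.2 and 18.1 CPM untreated, 17.2 and 19.4, 17.9 and 18.4, and 16.9 and 17.8 CPM with GSK591, and 19.5 and 15.5, 18.3 and 16.8, and 16.9 and 17.7 CPM with MS023. RRN3 was at 7.56 and 6.45 CPM untreated, 6.32 and 4.94, 6.05 and 5.32, and 5.11 and 6.97 CPM with GSK591, and 5.57 and 5.72, 7.11 and 5.63, and 6.73 and 7.09 CPM with MS023. Their log2 changes ran from -0.11 to -0.03 for POLR1B and from -0.32 to -0.02 for RRN3. MYBBP1A, a nucleolar MYB-binding protein, fell by 0.48 ± 0.12 at 4 days of GSK591 and by 0.35 ± 0.12 at 7 days of MS023 (edgeR, adjusted p = 0.00372 and 0.0396), the first in each fit without 1 library (adjusted p up to 0.0492) and the second not (up to 0.319).

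POLR1C, a subunit shared with RNA polymerase III, was at 16.5 and 15.6 CPM untreated, 10.2 and 13.6, 10.6 and 9.33, and 11.6 and 8.04 CPM with GSK591, and 11.6 and 9.78, 11.3 and 10.7, and 12.1 and 10.9 CPM with MS023, all 12 below the untreated pair. It fell in 5 of the 6 comparisons, by 0.48 ± 0.16 at 7 days of MS023 to 0.69 ± 0.18 at 7 days of GSK591. Of 5 fits without 1 library, the 2 GSK591 falls passed in 4 each (edgeR, adjusted p up to 0.0648 and 0.192) and the MS023 falls at 2, 4 and 7 days in 2, 1 and 1 (up to 0.213, 0.144 and 0.249). Its exons overlap 4 genes on the opposite strand (LRRC73, YIPF3, XPO5 and AL355802.2), and whether counting used strand is not given in the sources used here. The authors' deposited tables give POLR1C log2 changes above 0 in all 6, from 0.08 to 0.26. The highest of these in the authors' deposited table, at 4 days of GSK591, has an adjusted p of 0.0340.

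Among the 9 genes of the small-subunit processome and its late maturation, 0, 2 and 0 fell with GSK591 (all genes 2.45%, 8.28% and 6.52%). With MS023 2, 2 and 0 fell (all genes 4.21%, 6.37% and 6.51%). WDR43, a processome protein, fell by 0.82 ± 0.19 at 4 days of GSK591 and by 0.67 ± 0.19 and 0.58 ± 0.18 at 2 and 4 days of MS023, from an untreated level of 29.2 ± 3.76 CPM (SD, n = 2). UTP4, another processome protein, fell by 0.66 ± 0.17, 0.50 ± 0.17 and 0.63 ± 0.16 in the same comparisons, from 14.7 ± 1.14 CPM (SD, n = 2). Without 1 library edgeR's adjusted p reached 0.0777, 0.200 and 0.270 for WDR43 and 0.0763, 0.492 and 0.0968 for UTP4. UTP20, HEATR1, NOP14, NOB1, DDX10 and RRP12 passed in none of the 6 comparisons.

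BYSL (hg38 chr6:41921188-41933046, plus strand), a factor of late small-subunit maturation, was at 14.1 and 16.1 CPM untreated, 19.9 and 18.8, 16.7 and 17.4, and 14.8 and 19.7 CPM with GSK591, and 22.2 and 19.6, 19.2 and 18.9, and 22.5 and 23.4 CPM with MS023. All 6 MS023 libraries lie above the untreated pair. BYSL rose by 0.46 ± 0.15 and 0.60 ± 0.14 at 2 and 7 days of MS023 (edgeR, adjusted p = 0.0323 and 0.00248), and without 1 library adjusted p reached 0.286 and 0.0786. The authors' deposited tables give the opposite sign for BYSL with MS023, -0.08, -0.44 and -0.34 at 2, 4 and 7 days, with an adjusted p of 0.0474 at 4 days.

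The 13 genes of large-subunit assembly held 1, 5 and 0 falls with GSK591 (all genes 2.45%, 8.28% and 6.52%). With MS023 1, 3 and 3 fell (all genes 4.21%, 6.37% and 6.51%). NOP16 was at 9.23 and 8.46 CPM untreated, 7.12 and 10.5, 3.75 and 4.61, and 5.81 and 6.43 CPM with GSK591, and 8.70 and 8.68, 6.54 and 4.41, and 6.66 and 7.17 CPM with MS023, and its exons overlap 2 genes on the opposite strand. It was lowest at 4 days, with a fall of 1.08 ± 0.21 at 4 days of GSK591 (edgeR, adjusted p = 0.000199) that passed in each fit without 1 library (up to 0.0156) and one of 0.69 ± 0.20 at 4 days of MS023 that did not (up to 0.304). EBNA1BP2, a scaffold of early large-subunit assembly, was at 11.5 and 9.27 CPM untreated, 5.91 and 4.02, 5.09 and 4.01, and 6.16 and 6.70 CPM with GSK591, and 4.01 and 4.25, 5.83 and 5.34, and 6.94 and 7.82 CPM with MS023, below the untreated pair in all 12. It fell by 1.18 ± 0.35 at 4 days of GSK591 and by 1.32 ± 0.35 at 2 days of MS023, and without 1 library adjusted p reached 0.164 and 0.144. At 7 days of MS023, PES1 fell by 1.13 ± 0.27, LAS1L by 1.12 ± 0.32 and RRP1B by 0.63 ± 0.17, with adjusted p up to 0.0941, 0.190 and 0.0677 without 1 library. PES1 and WDR12 form a complex with BOP1, which fell by 0.48 ± 0.17 and 0.55 ± 0.16 at 4 days of GSK591 and MS023, and WDR12 fell by 0.53 ± 0.18 at 4 days of MS023. Each of these 3 falls passed in 1 of 5 fits without 1 library (adjusted p up to 0.255, 0.135 and 0.308).

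PPAN, a large-subunit factor, was the only gene of the 41 called at 2 days of GSK591. It was at 5.67 and 5.84 CPM untreated, 1.88 and 4.14, 5.19 and 4.31, and 6.63 and 5.09 CPM with GSK591, and 5.77 and 5.35, 5.12 and 4.49, and 6.94 and 6.30 CPM with MS023. Replicate 1 at 2 days of GSK591 is the lowest of these libraries. The fall of 0.90 ± 0.27 (edgeR, adjusted p = 0.0377) was lost without that replicate, where the change was -0.47 (adjusted p = 0.492), and without either untreated replicate. Its exons overlap those of P2RY11 and of the read-through gene PPAN-P2RY11. DDX18, GNL3, NIP7 and NOP2 passed in none of the 6 comparisons, nor did the nucleolar helicase DDX21 or LYAR.

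Change over time was tested between 7 and 2 days of the same inhibitor, with TMM scaling. With GSK591, NOP56 and UBTF fell, by 0.32 ± 0.10 and 0.38 ± 0.11, and PPAN rose by 0.94 ± 0.28, 3 genes against 8.39% of all genes. With MS023, FBL fell by 0.85 ± 0.20, NOLC1 by 0.71 ± 0.20, NOP56 by 0.38 ± 0.10 and UBTF by 0.30 ± 0.10, 4 genes against 13.2% of all. The medians of the 41 genes were -0.17 and -0.02. Under total counts that with MS023 was 0.32, against 0.34 for all genes, and UBTF turned above 0. Each of these 7 changes was lost in at least 1 fit without 1 compared library. With GSK591, 0 genes passed without replicate 1 of either time and 1, PPAN, without replicate 2 of either time; with MS023, 0 passed without 2-day replicate 1 or 7-day replicate 2 and 2 without 2-day replicate 2 or 7-day replicate 1. Without the library that stood apart 5 and 7 genes passed.

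Dex alone for 15 min left 0 of the 41 genes past the threshold by edgeR, with 1 at an unadjusted p under 0.05 and 0 by DESeq2 (40 genes with an adjusted p), against 1.26% of all genes. After 3 h, 5 genes fell and 0 rose, against 4.41% and 6.11% of all genes, and the median of the 41 was -0.39, under total counts -0.22 with 0 genes called. BYSL went from 14.1 and 16.1 CPM to 10.5 and 8.79 CPM, a fall of 0.64 ± 0.16 (edgeR, adjusted p = 0.00492). POLR1A went from 47.2 and 43.7 CPM to 36.9 and 34.3 CPM, a fall of 0.35 ± 0.11 (adjusted p = 0.0337). MYBBP1A fell by 0.47 ± 0.12, RRS1 by 0.49 ± 0.16 and RRP12, a processome protein, by 0.47 ± 0.15. The treated and untreated pairs do not overlap for these 5 genes, and each fall was lost in at least 1 fit without 1 library. NCL, at 189.8 and 157 CPM, lay below both untreated libraries too, but its log2 change of -0.94 did not pass. Without untreated replicate 1 or 2 the falls numbered 2 and 1, without Dex replicate 1 or 2 1 and 2, and without the library that stood apart 10.

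Adding GSK591 to Dex for the same 3 h left 0 genes past the threshold by edgeR, with 1 at an unadjusted p under 0.05 and 0 by DESeq2, against 0.0% of all genes. Adding MS023 gave 1 fall, against 0.0611% of all genes. NOP2, an RNA methyltransferase of the large subunit, was at 24.7 and 23.8 CPM with Dex and 17.0 and 14.1 CPM with Dex and MS023, a fall of 0.65 ± 0.14 (edgeR, adjusted p = 0.0368). The group holds the library that stood apart. Without it 0 genes passed, without either Dex replicate 0 passed, and without its partner 16 genes were higher and 1 lower.

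Dex for 3 h after 7 days of an inhibitor was compared with that inhibitor alone. BYSL went from 14.8 and 19.7 CPM to 7.94 and 9.40 CPM after GSK591 and from 22.5 and 23.4 CPM to 10.7 and 8.71 CPM after MS023, with no overlap. These falls, 0.98 ± 0.17 and 1.24 ± 0.14, passed in each fit without 1 library (edgeR, adjusted p up to 0.00834 and 1.4e-05). After GSK591, RRS1 also fell, by 0.59 ± 0.17, and NOP10 rose by 1.48 ± 0.44, which made 2 falls and 1 rise against 4.46% and 5.39% of all genes. After MS023, RRP12 fell by 0.55 ± 0.15, which made 2 falls against 5.38%. The changes of RRS1, NOP10 and RRP12 were lost in at least 1 fit without 1 library (adjusted p up to 0.283, 0.378 and 0.197): only BYSL remained after GSK591 without either GSK591 replicate or replicate 1 of GSK591 then Dex, and 1 gene was left after MS023 without MS023 replicate 2 or replicate 1 of MS023 then Dex. NOP10 rested on as few as 6 counts in a library.

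Dex for 15 min after GSK591 or MS023 gave 0 calls by edgeR, and 0 by DESeq2 among the 35 and 38 of the 41 genes to which it gave an adjusted p, with 5 and 4 genes at an unadjusted p under 0.05 by edgeR, against 2.09% and 2.07% of all genes. Whether 3 h of Dex acted differently after an inhibitor was tested as an interaction, which gave 0 calls for GSK591 and for MS023 by edgeR, and 0 by DESeq2 among only 27 and 11 of the 41 genes with an adjusted p, with 1 and 3 genes at an unadjusted p under 0.05 by edgeR, against 0.223% and 0.223% of all genes.

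The lowest summed levels were those of 7 days of an inhibitor followed by 3 h of Dex, 674 and 651 CPM after GSK591 and 744 and 694 CPM after MS023. These groups were also compared with untreated cells, a comparison added after the authors' values had been seen. After GSK591 then Dex, 29 of the 41 genes (70.7%) fell and 0 rose, against 13.0% and 13.8% of all genes. The median was -0.73, and under total counts 7 fell, with an all-gene median of 0.18. After MS023 then Dex, 19 (46.3%) fell and 0 rose, against 10.6% and 11.3%, with a median of -0.49. Under total counts 16 genes were higher there and none lower, with an all-gene median of 1.00 and 0.53 for the 41. NCL was at 80.4 and 86.3 CPM after GSK591 then Dex, a 4.00-fold fall (edgeR adjusted p = 0.000642) that passed in each fit without 1 library, and at 120.3 and 88.3 CPM after MS023 then Dex. FBL was at 10.0 and 11.7 and at 11.6 and 9.82 CPM, falls of 1.21 ± 0.21 and 1.23 ± 0.20 that passed in each such fit. POLR1B, RRN3, NOP14, UTP20 and HEATR1 were among the genes that passed in neither. Leaving out untreated replicate 1 or 2 gave 15 and 18 falls after GSK591 then Dex and 11 and 12 after MS023 then Dex, and leaving out treated replicate 1 or 2 gave 17 and 13, and 13 and 11. The comparisons of GSK591, MS023 and Dex alone share these untreated libraries, and their log2 changes for NCL are -1.24, -1.66 and -0.94.

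The authors' deposited tables list 38 of the 41 genes (not PPAN, HEATR1 or EBNA1BP2). For GSK591 at 2, 4 and 7 days the authors' deposited tables give 6, 22 and 17 falls at an adjusted p below 0.05, against 9.16%, 14.0% and 13.0% of their genes with an adjusted p. For MS023 the authors' deposited tables give 5, 18 and 18 falls, against 9.26%, 12.3% and 12.3%, and for Dex at 3 h 13, against 11.0%. For 7 days of GSK591 or MS023 followed by 3 h of Dex, the authors' deposited tables give 32 and 29 falls of 38, against 18.5% and 16.3%. Of the edgeR falls among these 38 genes, those that were falls in the authors' deposited tables too numbered 11 of 14 and 6 of 7 at 4 and 7 days of GSK591, 1 of 4, 7 of 10 and 9 of 12 at 2, 4 and 7 days of MS023, 5 of 5 at 3 h of Dex and 26 of 28 and 16 of 18 for GSK591 or MS023 then Dex. At 2 days of GSK591 edgeR called none of the 38, against 6 in the authors' deposited table. At 4 days of GSK591 and for GSK591 then Dex, POLR1C was called lower by edgeR and higher in the authors' deposited table. In the authors' deposited tables NCL has log2 changes of -0.67, -0.92 and -0.99 with GSK591 and -0.43, -0.79 and -1.19 with MS023, and FBL -0.84 and -0.61 at 7 days.

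Other genes of the pathway were counted over 116 genes in 4 lists, all tested: 11 further RNA polymerase I genes, 44 of the small subunit, 47 of the large subunit and 14 of the RNA exosome. Under TMM scaling 5, 15 and 19 of the 116 fell with GSK591 at 2, 4 and 7 days (4.31%, 12.9% and 16.4%) and 10, 15 and 17 with MS023 (8.62%, 12.9% and 14.7%). Over all genes tested, 2.45%, 8.28% and 6.52% fell with GSK591 and 4.21%, 6.37% and 6.51% with MS023. Rises numbered 0, 2 and 0 with GSK591 and 3, 1 and 1 with MS023. Over all genes 3.19%, 8.91% and 6.68% rose with GSK591 and 6.18%, 7.8% and 7.13% with MS023. At 7 days the medians of the 116 were -0.31 and -0.23, nearer to 0 than those of the 41 genes. Both sets were chosen with earlier results of these data known, and the difference between them was not tested. The large-subunit list held 10 and 10 falls of 47 at 7 days of GSK591 and MS023, and the small-subunit list 4 and 5 of 44. The RNA polymerase I list held 3 and 1 of 11 and the exosome list 2 and 1 of 14, against 6.52% and 6.51% of all genes. AATF, a processome factor, fell by 0.89 ± 0.19 with GSK591 and by 1.08 ± 0.19 with MS023 at 7 days (edgeR, adjusted p = 0.00319 and 0.000374). EXOSC9, an exosome subunit, fell by 1.04 ± 0.27 with GSK591, RIOK1, a kinase of late small-subunit maturation, by 0.75 ± 0.25 with MS023, and IMP3, a processome protein, rose by 0.70 ± 0.20 with MS023. Dex for 3 h gave 12 falls and 1 rise among the 116, against 4.41% and 6.11% of all genes, with a median of -0.19. UTP14A fell by 0.77 ± 0.23 and PA2G4 by 0.76 ± 0.17, and NOL6 rose by 0.68 ± 0.16.

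The product of RNA polymerase I could be read only in part, since rDNA copies are near-identical. Copies of a feature are therefore not separate observations. The features of the rDNA unit that passed the filter on chromosome 21 were 4 copies of the 5.8S gene RNA5-8SN2 (hg38, the first at chr21:8212572-8212724, plus strand), 2 copies of MIR3687 (chr21:8208844-8208904 and chr21:8987370-8987430, plus strand) and 2 of MIR3648. MIR3687 and MIR3648 lie in the spacer ahead of the small-subunit rRNA, and reads of mature 5.8S rRNA cannot be told apart from nascent ones. Summed over copies, 5.8S was at 3806 and 3963 CPM untreated, 5839 and 4874, 3720.2 and 5042, and 3464 and 3429.6 CPM with GSK591, and 4507 and 2633, 1893 and 1500.5, and 1973 and 1455 CPM with MS023. The 4-day and 7-day MS023 libraries are the lowest of these. All 4 copies fell with MS023, by 1.18 to 1.21 at 4 days and by 1.17 to 1.20 at 7 days (edgeR, adjusted p at most 0.00691 and 0.00762), and none passed with GSK591. MIR3687 was at 1568 and 1176 CPM untreated, 3144 and 1966, 1228 and 853, and 1760.3 and 1138 CPM with GSK591, and 1467 and 946, 364 and 339, and 540.0 and 484 CPM with MS023. Both copies fell with MS023, by 1.95 to 1.98 at 4 days and 1.38 to 1.46 at 7 days, and MIR3648 passed in none of the 6 comparisons. Under total counts the 5.8S falls did not pass, with log2 changes of -0.46 to -0.43 and -0.17 to -0.15 at 4 and 7 days (adjusted p at least 0.0886 and 0.485), and at 2 days all 4 copies were higher (0.55 to 0.57). MIR3687 then passed at 4 days (-1.21 to -1.19, adjusted p at most 0.0375) and not at 7 days (-0.42 to -0.35).

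Tested directly, the 4 copies of 5.8S were 1.35 to 1.38 and 0.99 to 1.03 higher with GSK591 than with MS023 at 4 and 7 days (log2, edgeR adjusted p at most 0.00523 and 0.0283), and both copies of MIR3687 1.55 to 1.58 and 1.47 to 1.53 higher (0.0283 and 0.0301). Under total counts 5.8S was still higher with GSK591 at 4 days (1.01 to 1.04, adjusted p at most 0.00262), but at 7 days the difference was -0.054 to -0.012, and MIR3687 passed at neither time (1.23 to 1.26 and 0.47 to 0.53). Without 1 library, adjusted p of the differences between the inhibitors reached 0.0991 and 0.218 for 5.8S, 0.234 and 0.184 for MIR3687-1 and 0.219 and 0.244 for MIR3687-2. Without a filter on low counts only the 4-day difference of 5.8S passed. Without 1 library, adjusted p of the MS023 falls of RNA5-8SN2 reached 0.0993 and 0.0980 at 4 and 7 days. For MIR3687-1 it reached 0.0466 and 0.142, and for MIR3687-2 0.0511 and 0.190. The mitochondrial share of counts was 76.0% and 73.4% untreated, 64.9% and 66.1% and 58.7% and 59.6% at 4 and 7 days of MS023, and 69.5% and 70.3% and 73.7% and 78.7% with GSK591; its part in these falls was not tested.

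**Figure D4:**
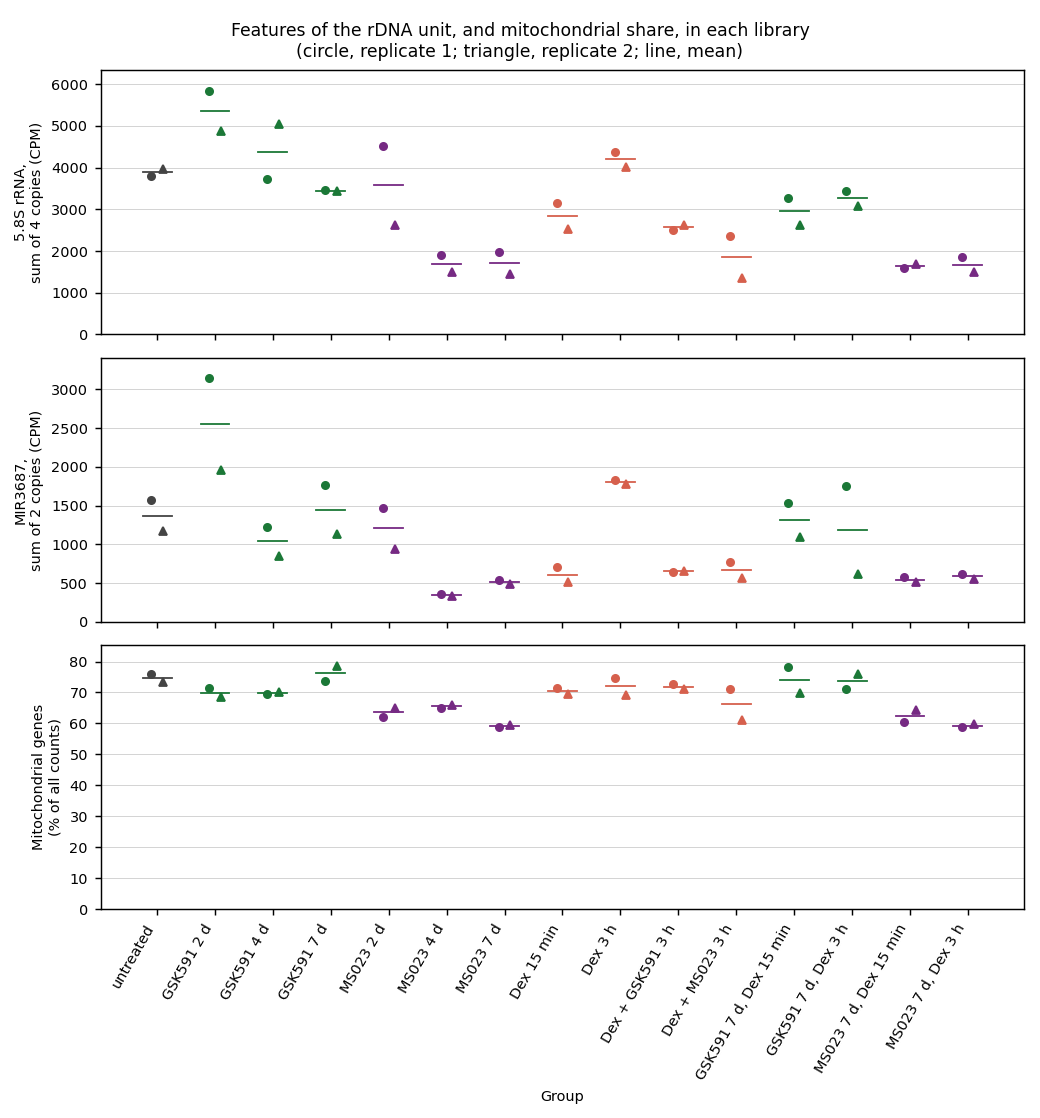
CPM (TMM scaling) summed over 4 copies of 5.8S rRNA and 2 copies of MIR3687, and the share of all counts in mitochondrial genes (%), in each of the 30 libraries by group (circle, replicate 1; triangle, replicate 2; line, mean; grey untreated, green GSK591 first, purple MS023 first, red Dex without pretreatment). 5.8S after 4 and 7 days of MS023 (1893 and 1500.5, and 1973 and 1455 CPM) lies below the untreated 3806 and 3963 CPM (under total counts neither fall passed), and the mitochondrial share is lower in the same libraries.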

How the data were processed

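PRO-seq reads of 30 A549 libraries had been counted per gene with featureCounts 2.0.1 (Subread) on hg38, per the submitters' processing notes; the aligner, the feature type counted and the use of strand are not given in the sources used here. The deposited counts are whole numbers per gene, not normalized. The authors' deposited tables give log2 fold changes with standard errors and p-values (raw and adjusted) against untreated cells, and a signal column that, per the file headers, is the mean over samples and was not printed here. Gene positions came from GENCODE 29, which matched all 58780 gene IDs.

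Counts were fitted with edgeR 4.0.16 (R 4.3.3, limma 3.58.1): TMM scaling, filterByExpr (minimum count 10, minimum total 15), and a robust quasi-likelihood test over all 15 groups in 1 fit with 15 residual degrees of freedom, for 21 comparisons and 2 added ones. The Benjamini-Hochberg adjustment ran over 22919 genes at a threshold of 0.05. CPM uses TMM-scaled library sizes, and a value per kilobase divides by the union of exons. A processed-pseudogene share is of counts outside mitochondrial genes. The test was checked on simulated data. DESeq2 1.42.0, other scalings, no filter, leaving out libraries, and a block for the replicate number were tried as alternatives.

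The 41 genes, and the 4 lists of other pathway genes, were chosen with earlier results of these data known. All 41 may be named; values in every library are given for NCL, NPM1, FBL, DKC1, POLR1A, POLR1B, UBTF and RRN3, for the highest and lowest called gene of each inhibitor and 3 h Dex comparison, and for others where a result turns on them, chosen after their values were seen. From the other lists, the 2 genes with the largest called change in each direction and a mean of at least 5 CPM are named. Of the comparisons, those of 7 days of an inhibitor then Dex for 3 h with untreated cells were added after the authors' values had been seen. Epithelial and other-cell marker lists were used to check the cell type.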

Additional observations from a re-analysis of the deposited data

Results flagged for a closer look

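Effects of the same inhibitor against untreated cells differed between 7 and 2 days, by edgeR's test of that difference, in 12 cases. Of these, 4 are near-identical copies of RNA5-8SN2, which are not separate observations. With GSK591 the log2 difference was -0.32 for NOP56, -0.38 for UBTF and 0.94 for PPAN. With MS023 it was -0.38 for NOP56, -0.85 for FBL, -0.30 for UBTF and -0.71 for NOLC1. These 3 and 4 of the 41 genes are 7.32% and 9.76%, against 8.39% and 13.2% of all genes, and each of the 7 was lost in at least 1 fit without 1 library. Among the rDNA features it was -1.26 for MIR3687-1 and -1.05, -1.09, -1.05 and -1.05 for the 4 copies of RNA5-8SN2 with MS023, each lost in at least 1 fit without 1 library (adjusted p up to 0.317 and 0.254). Under total counts the 5.8S differences were -0.75 to -0.71 and passed, and that of MIR3687-1 did not. In the same libraries the mitochondrial share of counts went from 62.2% and 65.0% at 2 days to 58.7% and 59.6% at 7 days; its part was not tested.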

How the results depend on the processing

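The fits rest on 2 libraries a group and share 1 untreated pair, so single calls moved with 1 library; counts of the 41 genes called are given here as edgeR's unless another tool is named. On simulated counts with 67 genes at a log2 change of 0.5, 67 at 1 and 66 at 2, the test called 16.4%, 59.7% and 92.4% of them for 7 days of GSK591, so a gene that did not pass may still have changed. Under total counts the changed counts were 0 with GSK591 at 2 days, 1 with GSK591 at 4 days, 1 with GSK591 at 7 days, 11 with MS023 at 2 days, 5 with MS023 at 4 days, 21 with MS023 at 7 days, 2 with GSK591 against MS023 at 2 days, 38 with GSK591 against MS023 at 7 days, 5 with 7 against 2 days of GSK591, 1 with 7 against 2 days of MS023, 0 with Dex at 3 h, 0 with MS023 added to Dex, 1 with 3 h of Dex after MS023, 7 with GSK591 then Dex against untreated and 16 with MS023 then Dex against untreated. With that scaling, which includes mitochondrial genes, the all-gene median moved as given above. The share of all genes called is not given for total counts or for the other settings here. With total counts these features changed sign: GSK591 at 4 days POLR1A 0.033; MS023 at 2 days UTP4 0.17, WDR43 0.011 and POLR1C 0.095; MS023 at 4 days NOP16 0.066, NOP56 0.42, WDR12 0.21, UTP4 0.11, WDR43 0.17, NOLC1 0.084, POLR1C 0.21 and BOP1 0.20; MS023 at 7 days POLR1A 0.68, NOP56 0.64, UBTF 0.72, GAR1 0.11, MYBBP1A 0.66, RRP1B 0.39, NOLC1 0.066 and POLR1C 0.54; GSK591 against MS023 at 7 days RNA5-8SN2 -0.033, RNA5-8SN2 -0.012, RNA5-8SN2 -0.054 and RNA5-8SN2 -0.045; 7 against 2 days of MS023 UBTF 0.050; MS023 then Dex against untreated POLR1A 0.58 and UBTF 0.72. With MS023 added to Dex and no filter, 4 genes were higher and 1 lower. The other changed counts were, with DESeq2, 3 with MS023 at 2 days, 6 with MS023 at 4 days, 0 with GSK591 against MS023 at 2 days, 0 with GSK591 against MS023 at 4 days, 0 with 7 against 2 days of GSK591, 2 with Dex at 3 h and 1 with 3 h of Dex after GSK591; with DESeq2 size factors, 1 with GSK591 against MS023 at 7 days; with no filter, 3 with GSK591 at 2 days, 0 with GSK591 against MS023 at 4 days, 1 with GSK591 against MS023 at 7 days and 5 with MS023 added to Dex; with only the compared groups in the fit, 10 with GSK591 at 2 days, 25 with GSK591 at 4 days, 19 with GSK591 at 7 days, 15 with MS023 at 2 days, 26 with MS023 at 4 days, 20 with MS023 at 7 days, 2 with GSK591 against MS023 at 4 days, 4 with GSK591 against MS023 at 7 days, 5 with 7 against 2 days of GSK591, 12 with 7 against 2 days of MS023, 13 with Dex at 3 h, 0 with MS023 added to Dex, 5 with 3 h of Dex after GSK591 and 1 with the MS023 interaction; and with a covariate for the share of processed pseudogenes, chosen after seeing the data, 4 with GSK591 at 2 days, 16 with GSK591 at 7 days, 10 with MS023 at 2 days, 24 with MS023 at 4 days, 2 with GSK591 against MS023 at 2 days, 4 with GSK591 against MS023 at 7 days, 7 with 7 against 2 days of GSK591, 11 with 7 against 2 days of MS023, 9 with Dex at 3 h, 0 with MS023 added to Dex and 7 with 3 h of Dex after GSK591. The cause was not tested. Leaving out mitochondrial and ribosomal RNA genes gave a count within 1.5 times in every comparison except 1 with GSK591 against MS023 at 7 days.

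With the replicate number as a block, the counts for GSK591 were 2, 16 and 9, for MS023 6, 15 and 15 and for 3 h of Dex 5, and all 112 named calls stayed on their side of the threshold. Same-numbered libraries did not deviate together (median r = 0.0063 over 105 pairs of groups, 8 above 0.1), so the numbers are not taken as a pairing. Leaving out 1 library at a time, the library that stood apart included, gave 0 to 7 with GSK591 at 2 days, 7 to 22 with GSK591 at 4 days, 2 to 16 with GSK591 at 7 days, 1 to 11 with MS023 at 2 days, 1 to 21 with MS023 at 4 days, 5 to 17 with MS023 at 7 days, 0 to 1 with GSK591 against MS023 at 2 days, 0 to 1 with GSK591 against MS023 at 4 days, 0 to 2 with GSK591 against MS023 at 7 days, 0 to 5 with 7 against 2 days of GSK591, 0 to 7 with 7 against 2 days of MS023, 1 to 10 with Dex at 3 h, 0 to 17 with MS023 added to Dex, 1 to 4 with 3 h of Dex after GSK591, 1 to 3 with 3 h of Dex after MS023, 13 to 31 with GSK591 then Dex against untreated and 11 to 27 with MS023 then Dex against untreated.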
